A study of Mus musculus with 6 samples.

Results

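The genes described here are the DNA methyltransferases Dnmt1, Dnmt3a, Dnmt3b and Dnmt3l, the hemimethylated-DNA reader Uhrf1, the oxidases Tet1, Tet2 and Tet3, and the glycosylase Tdg. They were chosen by name, in a rule that uses no measured value, and are 9 of the 35591 rows in a gene-level RNA-seq table of mouse tailbud. The tissue, which contains the presomitic mesoderm from which somites form, was cut from single FVB/NJ embryos with 8 somites, at about embryonic day 8.5. Each of 6 embryos gave 1 polyA library, with 3 WT embryos (Smchd1+/+) and 3 MommeD43 embryos (Smchd1MommeD43/MommeD43). MommeD43 is a missense allele of Smchd1 that arose on FVB/NJ in a chemical mutagenesis screen of mice with a transgene, from which it was then separated by backcrossing to FVB/NJ. No treatment is given, and the mutation was present in all cells rather than in a chosen cell type. In both groups the first replicate was a male embryo and the others, replicates 2 and 3, were females. By their embryo numbers both males came from 1 mother, while the 4 females came from 4 mothers. The question was whether a changed SMCHD1, a chromatin protein that acts in X inactivation and in silencing of gene clusters, goes along with a changed supply of the enzymes that write, copy and erase DNA methylation.

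DNA methylation in mammals is set at CpG sites by DNMT3A and DNMT3B, with DNMT3L as a catalytically inactive partner, and is copied after replication by DNMT1, which UHRF1 brings to hemimethylated sites. TET proteins oxidise 5-methylcytosine, and TDG excises the further oxidised forms so that repair restores an unmethylated cytosine. Around gastrulation the embryo gains most of its somatic methylation, whereas germ cell precursors, which lie close to the tailbud at this age, go on to lose it.

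Levels are given as RPKM (reads per kilobase of exon, scaled to the size of the library), back-transformed from the deposited log2 RPKM, and differences as log2 fold changes of MommeD43 against WT. The reads behind each value were recovered from the table, and libraries held from 10957916 to 47298348 reads, a range of 4.32-fold. The deepest were WT replicate 1 and MommeD43 replicate 2. Smchd1 transcripts stood at 8.07 ± 0.672 RPKM in the WT embryos, against 7.58 ± 0.40 RPKM in those with MommeD43 (SD, n = 3 each), which does not check the labels, because a missense allele need not alter its transcript. The 12 tailbud markers summed to between 660 and 893 RPKM in each library and the 8 neural markers to between 23.2 and 26.5 RPKM. A label field that names neural stem cells as the source thus went against both the tissue field and these levels. The dissections were uneven in other tissue: 8 primitive blood genes summed to between 8.92 and 486 RPKM, and 10 yolk sac genes to between 41.1 and 465 RPKM. No gene of 9 lists of tissue markers passed the adjusted test between genotypes.

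All 9 genes were read in these tissues at levels that spanned more than 3 orders of magnitude. None of the 8 that could be tested passed the test of WT against MommeD43, and Dnmt3l had too few reads for it. Uhrf1 stood highest, at 122 RPKM over the 6 libraries, and was followed by Dnmt1 (54.8 RPKM), Dnmt3b (33.1 RPKM), Dnmt3a (9.82 RPKM) and Tdg (8.68 RPKM). Tet3 (5.44 RPKM) and Tet1 (3.86 RPKM) came next, then Tet2 (0.472 RPKM) and Dnmt3l (0.0699 RPKM). This order held in 6 of 6 libraries for each of the 8 neighbouring pairs. As the pairs were picked by rank in the same libraries, the test describes how steady the order was and is not independent of it. The exact sign-flip permutation test within libraries gave p = 0.03125 for each pair (two-sided), which is the smallest value that 6 libraries can give, and the same value after Benjamini-Hochberg adjustment over the 8 pairs. The narrowest step was that from Dnmt3a to Tdg, with a mean difference in log2 RPKM of 0.18 and a range of 0.08 to 0.37. The widest steps were from Tet1 to Tet2 (3.04 on the log2 scale) and from Tet2 to Dnmt3l (2.82, with the library of 0 Dnmt3l reads entered at the deposited level). A level per length depends on the length used: dividing by the longest annotated transcript instead of all merged exons kept the order, but the step from Dnmt3b to Dnmt3a shrank from 1.74 to 1.20 and that from Tet3 to Tet1 grew from 0.51 to 1.01.

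**Figure D1:**
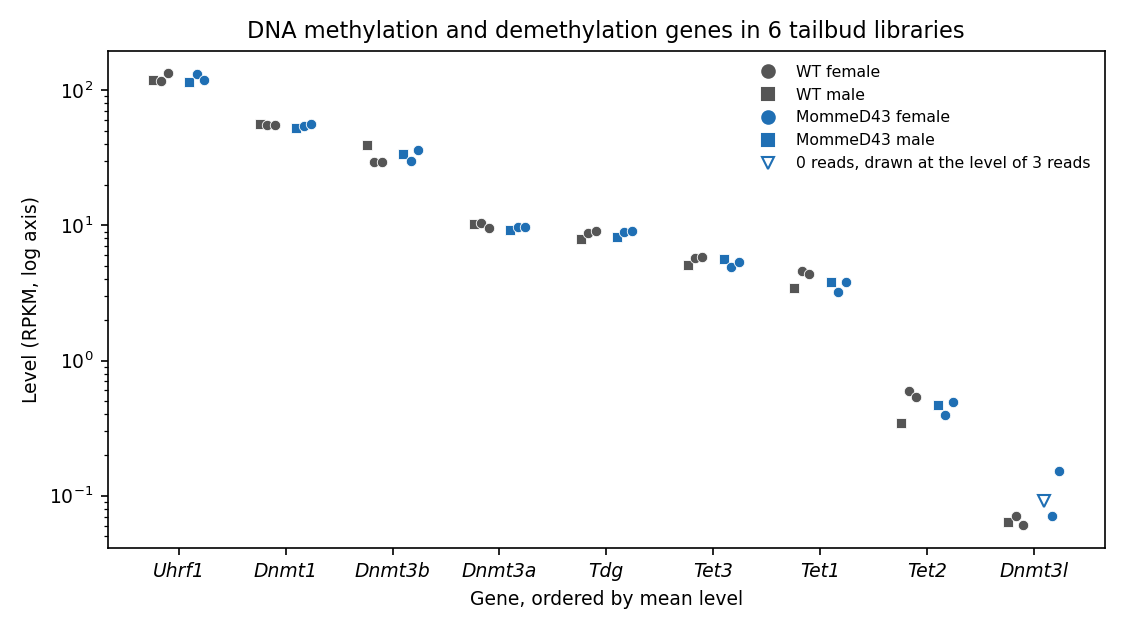
Level of each of the 9 genes in each of the 6 tailbud libraries, in RPKM on a log axis, with genes ordered by mean level. Each point is 1 embryo, grey for WT and blue for MommeD43, with squares for males and circles for females; the open triangle stands for the library with 0 Dnmt3l reads and is drawn at the level of 3 reads. Points of both groups lie side by side for every gene, from about 122 RPKM for Uhrf1 down to 0.0699 RPKM for Dnmt3l.

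Of the 9 genes, 8 had enough reads to be tested, and Dnmt3l did not. With limma on the 13617 autosomal genes that passed the filter, 0 of the 8 passed a Benjamini-Hochberg adjusted p of 0.05 (two-sided), against 0.0% of all genes tested. None reached an unadjusted p of 0.05, against 2.40% of all genes (327 genes: 194 or 1.42% higher and 133 or 0.977% lower in MommeD43). The libraries of both groups overlapped for all 8, while they did not overlap for 7.08% of all genes. Fold changes on the log2 scale were below 0 for 6 of the 8 and above 0 for Dnmt3b and Tdg, and their median was -0.05, beside 0.00 for all genes tested. The counts for these 8 genes thus do not stand apart from the background.

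**Figure D2:**
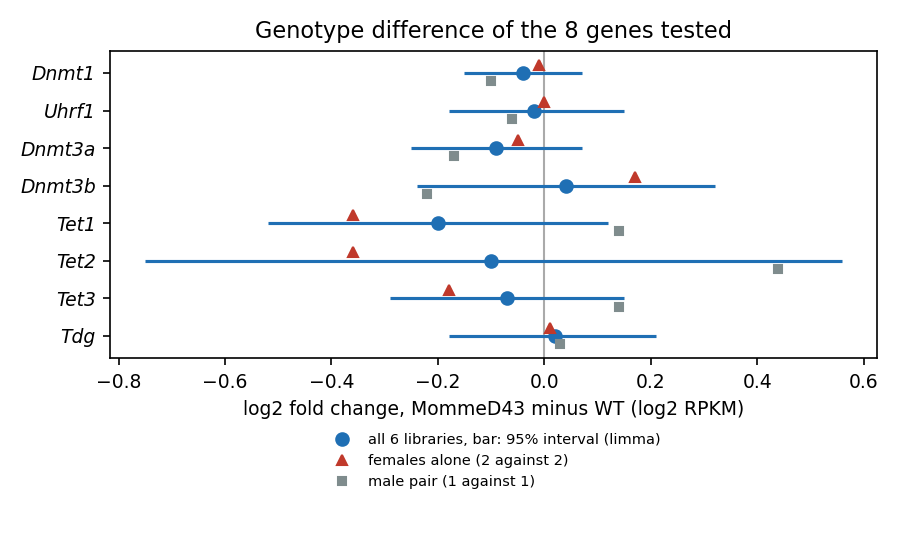
Log2 fold change of MommeD43 against WT (log2 RPKM) for the 8 genes tested, with the limma estimate over all 6 libraries and its 95% interval in blue, the 2 against 2 females as red triangles and the single male pair as grey squares. Every interval includes 0; it is narrowest for Dnmt1 (-0.15 to 0.07) and widest for Tet2 (-0.75 to 0.56).

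The maintenance pair was the most abundant part of this machinery. Dnmt1 (ENSMUSG00000004099, chr9:20907209-20959888, minus strand) was at 55.9, 55.1 and 55.5 RPKM in WT replicates 1 to 3 and at 52.3, 54.2 and 55.8 RPKM in MommeD43 replicates 1 to 3. The 3 WT embryos were nearly alike, and 1 MommeD43 embryo stood above 2 of them. The log2 fold change was -0.04 (SE 0.05, 95% interval -0.15 to 0.07, adjusted p = 0.999, limma), an interval that spans 0.903-fold to 1.05-fold. Dnmt1 was also the steadiest of the 8 genes: the SD of its log2 RPKM over the 6 libraries was 0.037, and 2.0% of all genes tested had a smaller one. Its reads, from 4226 to 18923 per library, gave a counting error of 0.727% to 1.54%.

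Uhrf1 (ENSMUSG00000001228, chr17:56303321-56323486, plus strand) was at 119, 117 and 133 RPKM in WT, and in MommeD43 at 115, 131 and 119 RPKM. Both groups thus held 1 library at 131 RPKM or more and 2 at 119 RPKM or less. Between genotypes its log2 fold change was -0.02 (SE 0.07, 95% interval -0.18 to 0.15, adjusted p = 0.999, limma). Its sign depended on single embryos, with 0.04 when WT replicate 3 was left out. The ratio of Uhrf1 to Dnmt1 in RPKM lay between 2.12 and 2.40 in WT and between 2.14 and 2.42 in MommeD43.

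Dnmt1 and Uhrf1 are both genes of S phase, and binding words of the E2F factors, which drive many such genes, were looked for in the promoter windows of RefSeq (GRCm38.p6, 250 bases before to 50 after each start). All 9 genes had windows, 16 in total. The words searched were TTTCCCGC, TTTCGCGC, TTTGCCGC and TTTGGCGC on both strands. One or more of them occurred in 2 of the 16 windows, 1 of Dnmt1 and 1 of Uhrf1, and in 2.26% of the 32851 windows of all genes. The stretches that hold them are shown to place the words, which are in capitals. For Dnmt1 the word is read on the opposite strand, and only 30 bases are given because other transcripts of the gene have an exon there (chr9:20952824-20952853, minus strand). The Dnmt1 window held a further word, TTTGGCGC, after the start. For Uhrf1 all 250 bases before the start are given (chr17:56304063-56304312, plus strand). A match describes these letters only.
Dnmt1: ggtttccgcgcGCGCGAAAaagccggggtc
Uhrf1: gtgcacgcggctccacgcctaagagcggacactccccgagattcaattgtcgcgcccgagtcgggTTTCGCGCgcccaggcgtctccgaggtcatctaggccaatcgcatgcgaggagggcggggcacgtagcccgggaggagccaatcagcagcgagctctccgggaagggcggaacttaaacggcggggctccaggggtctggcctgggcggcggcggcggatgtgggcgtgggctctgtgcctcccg

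Genes that work with these proteins at the replication fork were examined next. Of 16 S-phase replication genes, 0 passed the adjusted test, 0 reached an unadjusted p of 0.05, and their median log2 fold change was 0.03 (limma). Their summed level lay between 1150 and 1230 RPKM in WT and between 1180 and 1240 RPKM in MommeD43. Gmnn, a licensing inhibitor, had the smallest p, at 64.3 ± 1.67 RPKM in WT against 67.9 ± 1.76 RPKM in MommeD43 (log2 fold change 0.08, SE 0.05). It was the 1 gene of the 16 with groups that did not overlap, beside 7.08% of all genes. Of the 7 maintenance partners, 0 passed and the median was -0.02. Pcna, the sliding clamp on which DNMT1 docks, was the highest of them at 147 ± 4.97 RPKM in WT against 152 ± 5.90 RPKM in MommeD43. Uhrf2, the paralogue of Uhrf1, was at 22.1 ± 2.22 and 20.8 ± 0.876 RPKM.

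The de novo enzymes were led by Dnmt3b in every library. Dnmt3b (ENSMUSG00000027478, chr2:153649450-153687730, plus strand) was at 39.6, 29.3 and 29.3 RPKM in WT, and in MommeD43 at 33.9, 30.1 and 36.1 RPKM. The WT male was the highest of the 6, the WT females were the lowest, and the MommeD43 embryos lay between them. The log2 fold change was 0.04 (SE 0.12, 95% interval -0.24 to 0.32, adjusted p = 0.999, limma). Counting error was at most 2.30% in any library, and the highest level was 1.35 times the lowest. The SD of its log2 RPKM over the 6 libraries was 0.18, above that of 61.0% of all genes tested. These include genes with few reads, whose SD holds more counting error, and no rank among genes of like level was made.

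In females alone Dnmt3b had a log2 fold change of 0.17 (95% interval -0.05 to 0.38, adjusted p = 0.608, limma), and in the male pair the difference was -0.22. The difference between the sexes was -0.39 (SE 0.16) with an unadjusted p of 0.0436, and did not pass adjustment (adjusted p = 0.448, limma). At an unadjusted p of 0.05 this contrast was reached by 10.8% of all genes tested, and by 1 of the 8 genes described here. Of all genes tested, 37 (0.272%) passed adjustment for it (limma). There was 1 male per genotype, with 36617081 reads in the WT library and 10957916 reads in the MommeD43 library. Sex, mother, depth and dissection thus cannot be told apart. Without the deepest library of each group, an alternative chosen after seeing the data, the log2 fold change was 0.25 (95% interval 0.10 to 0.41, adjusted p = 0.404, limma).

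Dnmt3b is a gene of the epiblast that is turned down as lineages form, and its level was therefore set beside 12 epiblast and germ cell markers in the same libraries. These summed to 58.1, 39.7 and 38.8 RPKM in WT replicates 1 to 3 and to 48.4, 46.1 and 62.2 RPKM in MommeD43 replicates 1 to 3. The 2 libraries highest in Dnmt3b were also the 2 highest in this sum, and the WT females were lowest in both. Of the 12 markers 9 had enough reads to be tested, while Dppa4, Nanos3 and Fgf5 had no read in at least 1 library. Pou5f1, a pluripotency factor that is still read in the posterior epiblast at this age, was at 22.9, 6.91 and 6.37 RPKM in WT, and in MommeD43 at 11.5, 9.24 and 22.3 RPKM. The match rested on Pou5f1: without it, a choice made after seeing the data, the other 11 markers summed to 35.2, 32.9 and 32.4 RPKM in WT and to 36.9, 36.9 and 39.9 RPKM in MommeD43, with WT replicate 1 below all MommeD43 libraries. Nor was the match particular to these markers, since the tailbud markers, at 893, 666 and 660 RPKM in WT and 669, 774 and 801 RPKM in MommeD43, had the same 2 libraries highest and the WT females lowest. Summed levels of 8 primitive blood genes went the other way, with 8.92, 486 and 205 RPKM in WT and 25.5, 220 and 22.8 RPKM in MommeD43. The part of these tissues in the Dnmt3b levels was not tested, and in bulk tissue fewer cells of a type and less RNA per cell cannot be told apart. The 3 genes most like Dnmt3b across the 6 libraries were Tm7sf2, Oasl2 and Nol6 (Pearson r of log2 RPKM 0.994, 0.994 and 0.993). Their mean levels were 4.10, 0.162 and 29.5 RPKM, so that Oasl2 was near the floor. Of 13616 genes, 111 reached an r of 0.95. These are descriptions over libraries that differ in depth and tissue, and the count that chance would give was not worked out.

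**Figure D3:**
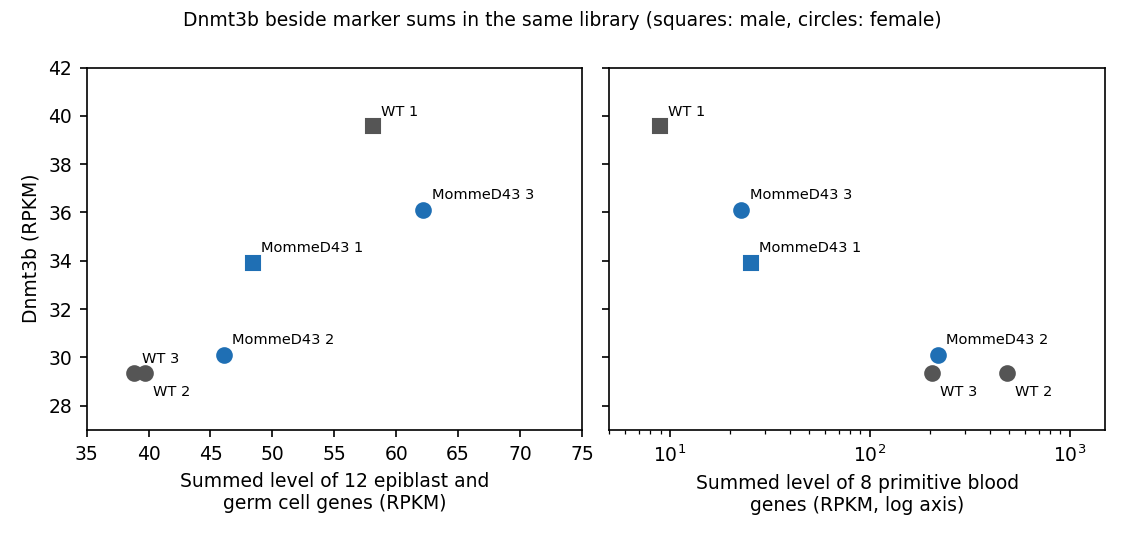
Level of Dnmt3b in RPKM in each of the 6 libraries against the summed level of 12 epiblast and germ cell genes (left) and of 8 primitive blood genes on a log axis (right); grey is WT, blue is MommeD43, squares are males and circles are females, and the vertical axis starts at 27 RPKM. WT replicate 1 and MommeD43 replicate 3, at 39.6 and 36.1 RPKM of Dnmt3b, lie on the side of high epiblast sums and low blood sums, and the WT females lie on the other; without Pou5f1 the epiblast sum of WT replicate 1 is 35.2 RPKM, below those of all MommeD43 libraries.

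Dnmt3a (ENSMUSG00000020661, chr12:3806007-3914443, plus strand) was at 10.3, 10.4 and 9.61 RPKM in WT, and in MommeD43 at 9.19, 9.70 and 9.69 RPKM. WT replicates 1 and 2 stood above all MommeD43 libraries, but WT replicate 3 did not. The log2 fold change was -0.09 (SE 0.07, 95% interval -0.25 to 0.07, adjusted p = 0.999, limma). The ratio of Dnmt3b to Dnmt3a in RPKM was 3.83, 2.82 and 3.05 in WT and 3.69, 3.11 and 3.73 in MommeD43. Dnmt3b was thus the higher in each embryo per length of transcript. In reads, both genes were close (25010 for Dnmt3b and 24466 for Dnmt3a in all), because the merged exons of Dnmt3a are 16642 bp long against 5106 bp for Dnmt3b. Exons of Dnmt3aos, on the other strand, cover 0.799% of those of Dnmt3a.

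Dnmt3l (ENSMUSG00000000730, chr10:78041947-78063622, plus strand) was at the limit of detection. It held 7, 5 and 3 reads in the WT libraries and 0, 10 and 6 reads in the MommeD43 libraries. The reads pooled over a group gave 0.0653 RPKM in WT (exact Poisson 95% interval 0.0366 to 0.108) and 0.0751 RPKM in MommeD43 (0.0429 to 0.122), where intervals cover counting error only. The intervals overlap over most of their length, and no difference was detectable at this depth. The library of 0 reads, MommeD43 replicate 1, allows up to 0.0916 RPKM at the floor of 3 reads, and 0.113 RPKM at the upper end of the exact Poisson 95% interval. The floor is above the level of 4 of the other 5 libraries. Dnmt3c, a rodent copy of Dnmt3b that acts in the male germ line, was also low, at 0.125 ± 0.0712 RPKM in WT against 0.148 ± 0.11 RPKM in MommeD43, on 38 reads in all.

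The 3 promoter windows of Dnmt3l held 6, 4 and 3 CpG in 300 bases, below the median of 7 over all windows but within the middle of their spread, since 47.9%, 38.0% and 31.4% of all windows held as many or fewer. Of the 16 windows of the 9 genes, 12 were above that median, and the remaining one below it, with 2 CpG, is a window of Dnmt1. The Tet2 window held the most, 57 CpG, and 99.9% of all windows held as many or fewer. Promoters of the 2 genes lowest in level are shown, with every CpG in capitals, as the 250 bases before a start in RefSeq (GRCm38.p6): chr10:78049592-78049841 on the plus strand for Dnmt3l, and chr3:133544391-133544640 on the minus strand for Tet2. The stretch of Dnmt3l has 4 CpG and that of Tet2 has 51. Methylation of these sites was not measured here.
Dnmt3l: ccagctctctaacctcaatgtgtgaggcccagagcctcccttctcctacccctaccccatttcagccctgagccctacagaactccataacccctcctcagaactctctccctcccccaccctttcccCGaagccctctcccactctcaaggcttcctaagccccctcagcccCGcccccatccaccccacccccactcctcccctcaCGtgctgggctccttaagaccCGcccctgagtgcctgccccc
Tet2: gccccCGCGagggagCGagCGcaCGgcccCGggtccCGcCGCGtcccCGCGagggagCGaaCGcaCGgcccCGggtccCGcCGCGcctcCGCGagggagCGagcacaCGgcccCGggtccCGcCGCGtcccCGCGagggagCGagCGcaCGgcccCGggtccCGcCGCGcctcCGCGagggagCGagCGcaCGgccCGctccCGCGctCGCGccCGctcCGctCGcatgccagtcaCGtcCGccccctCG

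The Tet genes were lower than the methyltransferases, apart from Dnmt3l, and moved together from library to library. Tet1 (ENSMUSG00000047146, chr10:62804570-62908996, minus strand), the oxidase of pluripotent and germ cells, was at 3.43, 4.63 and 4.33 RPKM in WT, and in MommeD43 at 3.78, 3.20 and 3.78 RPKM. Tet3 (ENSMUSG00000034832, chr6:83362373-83459084, minus strand) was at 5.12, 5.77 and 5.83 RPKM in WT, and in MommeD43 at 5.66, 4.92 and 5.36 RPKM. Tet2 (ENSMUSG00000040943, chr3:133463679-133545139, minus strand), known for its role in blood stem cells, was at 0.346, 0.595 and 0.539 RPKM in WT, and in MommeD43 at 0.471, 0.395 and 0.489 RPKM. In each group all 3 genes were lowest in the deepest library, WT replicate 1 and MommeD43 replicate 2, and the groups overlapped.

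None of the 3 passed: the log2 fold change was -0.20 for Tet1 (SE 0.14, 95% interval -0.52 to 0.12), -0.10 for Tet2 (SE 0.28, -0.75 to 0.56) and -0.07 for Tet3 (SE 0.10, -0.29 to 0.15), each with an adjusted p of 0.999 (limma). Tet1 thus had the lowest fold change of the 8 genes, and its interval spans 0.699-fold to 1.09-fold. Its value rested on the libraries used: in females alone it was -0.36 (unadjusted p = 0.0281, adjusted p = 0.563, limma), where 8.72% of all genes reached an unadjusted p of 0.05 and 0.0734% passed adjustment. Without WT replicate 1 it was -0.32 (adjusted p = 0.695, limma), and without the deepest library of each group it was -0.24 (adjusted p = 0.516, limma). In the male pair Tet1, Tet2 and Tet3 differed by 0.14, 0.44 and 0.14, in the opposite direction to the females, with -0.36, -0.36 and -0.18. These differences between the sexes did not pass adjustment (adjusted p = 0.481, 0.596 and 0.543, limma), and sex and depth cannot be told apart in the male pair.

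Across the 6 libraries the Pearson r of log2 RPKM was 0.91 between Tet1 and Tet2, 0.92 between Tet1 and Tet3 and 0.86 between Tet2 and Tet3, given as a description over libraries that differ in depth and tissue. Dnmt3b, by contrast, had r of -0.48, -0.64 and -0.40 with Tet1, Tet2 and Tet3. Being lowest of its group in both deepest libraries, the pattern of the Tet genes, was found in 3 of the 8 genes and in 8.88% of all genes tested, and the pattern was named after it was seen. It was found in 15.7% of the 1331 genes with at least 10000 bp of exon, a class to which all 3 Tet genes belong. Dnmt3a belongs to the same class and did not show it. The part of depth or transcript length in the Tet levels was not tested. The genes most like Tet1 were Golga4, Trip12 and Csnk1g1 (r 0.993, 0.987 and 0.986 over the 6 libraries), and 33 genes reached an r of 0.95. For Uhrf1 they were Nr5a2, Cerk and Hpf1 (r 0.995, 0.962 and 0.962), with 8 genes at 0.95. Nr5a2 was near the floor, at a mean of 0.23 RPKM. For these counts too, the number that chance would give was not worked out.

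**Figure D4:**
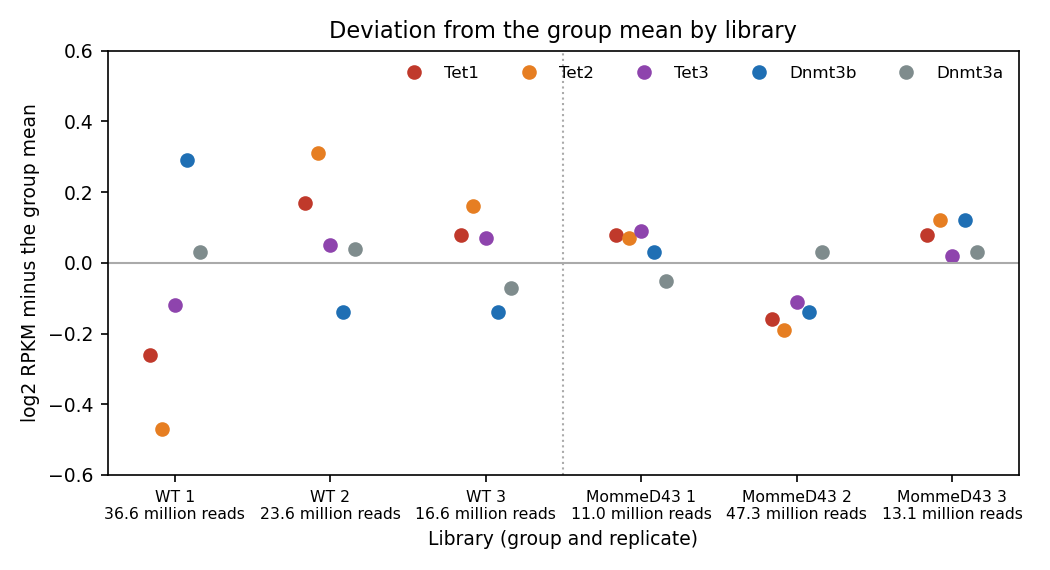
Deviation of log2 RPKM from the mean of its group for Tet1, Tet2, Tet3, Dnmt3b and Dnmt3a in each library, with the total reads of the library under its name and a dotted line between WT and MommeD43. In WT replicate 1 and MommeD43 replicate 2, the deepest libraries, the 3 Tet genes lie between -0.47 and -0.11, while Dnmt3a is at 0.03 in both.

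The promoter windows of the Tet genes differ in CpG content. The windows of Tet1 and Tet3 lie at starts inside the annotated genes, which begin upstream at 62908996 and 83459084. That of Tet2 lies near the upstream end of its gene, at 133545139, so that the windows are not at like positions. Those of Tet1 and Tet3 are shown beside that of Tet2 above, since the 3 genes moved together, again with CpG in capitals, from RefSeq (GRCm38.p6). That of Tet3 is the 250 bases before the start (chr6:83441679-83441928, minus strand), with 17 CpG. For Tet1, 100 of the 250 bases before the start lie in its annotated exons, and the longest run outside them, of 88 bases, is given (chr10:62887325-62887412, minus strand). This run has 6 CpG and the 250 bases have 15, against 51 for Tet2. None of the 3 windows held a word of the E2F type searched.
Tet1: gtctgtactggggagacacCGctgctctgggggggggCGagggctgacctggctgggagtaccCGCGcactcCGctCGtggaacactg
Tet3: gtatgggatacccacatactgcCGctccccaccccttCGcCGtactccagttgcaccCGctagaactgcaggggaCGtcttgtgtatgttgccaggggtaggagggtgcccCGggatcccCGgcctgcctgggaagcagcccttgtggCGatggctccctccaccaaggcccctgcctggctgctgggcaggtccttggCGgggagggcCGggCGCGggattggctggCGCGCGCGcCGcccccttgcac

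Tdg (ENSMUSG00000034674, chr10:82629828-82650799, plus strand), whose product removes formylated and carboxylated cytosine, was at 7.97, 8.81 and 9.11 RPKM in WT, and in MommeD43 at 8.13, 9.001 and 9.04 RPKM. In both groups the male was lowest, and the females lay at 8.81 RPKM or above. The log2 fold change was 0.02 (SE 0.08, 95% interval -0.18 to 0.21, adjusted p = 0.999, limma). Exons of Glt8d2, on the other strand, cover 6.83% of those of Tdg, and whether reads were counted by strand is not given in the sources used here.

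No gene of 7 lists of partners and readers around these genes passed an adjusted p of 0.05 (limma). Of the 16 genes on the list of base excision repair, the process that follows TDG, 1 reached an unadjusted p of 0.05, beside 2.40% of all genes. The median log2 fold change of the list was 0.07. The gene that reached it was Gadd45b, a stress-induced gene linked to demethylation rather than a repair enzyme, at 1.62 ± 0.259 RPKM in WT against 2.21 ± 0.182 RPKM in MommeD43 (log2 fold change 0.46, SE 0.16, unadjusted p = 0.0214, adjusted p = 0.999, limma). Its groups did not overlap, as was so for 7.08% of all genes. Apex1, the endonuclease that cuts the abasic site, was the highest of them, at 209 ± 12.6 RPKM in MommeD43 (log2 fold change 0.07, SE 0.06). None of the 8 genes tested on the list of methyl-CpG readers reached an unadjusted p of 0.05 (limma). Mbd4 had the smallest p, at 7.92 ± 0.563 RPKM in WT against 7.66 ± 0.125 RPKM in MommeD43 (log2 fold change -0.05, SE 0.08). Mbd3, a subunit of the NuRD complex, was the highest of this list at 102 ± 4.72 and 104 ± 3.92 RPKM. It was listed by family, and binding to methylated CpG was not examined.

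No gene that feeds the reactions passed either. Of the 13 genes of the S-adenosylmethionine and folate cycle that were tested, 0 reached an unadjusted p of 0.05 and the median was 0.02. Mat2a had the smallest p and the highest fold change of the list (log2 fold change 0.27, SE 0.21). It was low, at 0.644 ± 0.0243 RPKM in WT against 0.783 ± 0.139 RPKM in MommeD43, on 452 reads in all. Ahcy, which clears the product that inhibits methyltransferases, was at 55.0 ± 4.97 and 57.2 ± 3.55 RPKM. Of 9 TET partners and enzymes of the co-substrate 2-oxoglutarate, 0 reached an unadjusted p of 0.05 and the median was -0.09. Idh2 was the highest of them, at 53.8 ± 2.12 RPKM in WT against 58.3 ± 4.74 RPKM in MommeD43 (log2 fold change 0.11, SE 0.07). Idh3a, a subunit of mitochondrial isocitrate dehydrogenase, was the 1 gene of the 9 with groups that did not overlap, beside 7.08% of all genes, at 18.2 ± 0.281 RPKM in WT against 16.9 ± 0.27 RPKM in MommeD43 (log2 fold change -0.10, SE 0.05, unadjusted p = 0.0882, limma).

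Of 13 cofactors that direct methylation to certain loci or protect loci from it, 1 reached an unadjusted p of 0.05, beside 2.40% of all genes (limma). This was Dppa3, which protects methylation in the zygote, binds UHRF1 and marks primordial germ cells, at 3.65 ± 0.583 RPKM in WT against 5.69 ± 1.01 RPKM in MommeD43 (log2 fold change 0.64, SE 0.16, unadjusted p = 0.00428, adjusted p = 0.999, limma). In single libraries Dppa3 was at 3.40, 4.32 and 3.24 RPKM in WT, and in MommeD43 at 4.60, 5.88 and 6.60 RPKM, so that the groups did not overlap. This held for 2 of the 13 cofactors, beside 7.08% of all genes. Among the 9 epiblast and germ cell markers tested, the median log2 fold change was 0.41, 1 was below 0 (49.0% of all genes tested were), and Prdm14 was the other marker to reach an unadjusted p of 0.05 in limma, as 2.40% of all genes did (log2 fold change 0.58, SE 0.25). Dppa3 and Prdm14 are markers of few cells in this tissue, and the share of germ cells in each dissection was not measured. Trim28, the corepressor of KRAB zinc fingers, was the highest cofactor at 302 ± 24.2 and 301 ± 4.39 RPKM.

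Germline genes that are kept silent by promoter methylation in somatic tissue were almost unread. Of 12 such genes, 10 were not tested, for too few reads or a place on the X chromosome, and 2 of them had no read in any library. The list summed to between 0.947 and 1.24 RPKM in WT and between 0.492 and 0.853 RPKM in MommeD43. Each WT sum thus stood above each MommeD43 sum. These sums are near the floor and include the 10 genes not tested, and their difference was not tested. Ddx4, an RNA helicase of germ cells, was at 0.20 ± 0.0865 and 0.159 ± 0.126 RPKM, and Sycp1, of the synaptonemal complex, was at 0.265 ± 0.138 and 0.195 ± 0.0551 RPKM. The log2 fold changes of the 2 genes tested were -0.85 (SE 0.89) for Ddx4 and -0.36 (SE 0.44) for Sycp1, on 86 and 111 reads, and neither passed (adjusted p = 0.999, limma).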

How the data were processed

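RNA-seq was analysed from the tailbud of 6 embryos with 8 somites (3 WT, 3 MommeD43), grouped by the sample labels. Per the study's methods and the submitters' processing notes, polyA RNA was made into stranded libraries, and reads were trimmed with Trim Galore 0.4.4, mapped with HISAT2 2.0.5 to GRCm38.p6 and quantified per gene in SeqMonk. The table deposited by the authors holds log2 RPKM per gene and library, and columns of group means, which were not used. The number of columns left unassigned was 0.

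Of 35591 rows, 35555 matched GENCODE M21, which gave exon lengths. Reads were recovered as RPKM times exon length and library total. Undetected genes were listed at the level of 0.9 read. Of 105978 values above that level 99.0% were whole within 0.02, and depth is given as these totals. Genes were kept with at least 10 reads, scaled to the median library, in 3 libraries and 15 reads in all, which left 14134 genes, 13617 of them autosomal.

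For autosomal genes, limma 3.58.1 was run in R 4.3.3, trend included, on the deposited values, without a pseudocount, two-sided, with Benjamini-Hochberg adjustment over all of them. The sexes were compared with 1 coefficient per sex and genotype in the same tool. Levels of genes were compared within libraries by an exact sign-flip permutation test. Intervals of reads are exact Poisson 95% intervals and cover counting error only. Each library is 1 embryo. The paper describes 3 pairs of embryos matched by somite number, and the sample titles do not say which embryos form a pair. Deviations of same-numbered libraries from their group means had r of -0.03, 0.17 and -0.17. The main fit was not paired. With 3 libraries per group, such r cannot show that there was no pairing. Other steps ran in Python 3.11.15 (scipy 1.17.1, pandas 2.3.3, numpy 2.4.6), with figures from matplotlib 3.10.9.

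The code was tested on simulated data with the means and depths of these libraries: of 200 genes changed 2-fold among 13617, limma recovered 85.0% with 7 calls among unchanged genes, and it made 1 call where none was changed. The contrast between the sexes gave 0 calls in the first simulation and 4 false calls in the second. Every gene was given the same coefficient of variation between embryos, 0.1, and no difference of sex, mother or tissue was simulated. Recovery may thus be lower for genes that vary more. Alternatives were pseudocounts of 0.1 and 1 RPKM, other filters, median-ratio scaling, voom on recovered reads, no mean-variance trend, the replicate number as a block, a covariate for sex, females alone, and each library left out. The length of the longest transcript, and a fit without the deepest library of each group, were added after seeing the data. The genes and lists were chosen with earlier results of these data known. Named were the 9 genes, Smchd1, in each list the genes with an unadjusted p under 0.05 or else the smallest p, and the gene with the highest level, and the 3 genes most like Dnmt3b, Uhrf1 and Tet1. Of these, tissue markers are given in the text only where a result for the 9 genes turned on them.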

Additional observations from a re-analysis of the deposited data

How the results depend on the processing

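For the 8 genes tested, no alternative brought an adjusted p under 0.05: the lowest was 0.404, for Dnmt3b without the deepest library of each group. The log2 fold changes of Dnmt1, Dnmt3a, Tet1 and Tet3 stayed below 0 in all alternatives run, within -0.06 to -0.01, -0.12 to -0.05, -0.36 to -0.11 and -0.18 to -0.02. Those of Uhrf1, Dnmt3b, Tet2 and Tdg changed sign in some, and the cause was not tested. The replicate block, the covariate for sex, the other filters and the fit without a trend could not alter a fold change in this design. Uhrf1 was at 0.003 with voom on recovered reads and at 0.004 in females alone, and went from -0.07 to 0.04 with each library left out. Over the same fits Dnmt3b went from -0.03 to 0.18, Tet2 from -0.33 to 0.06 and Tdg from -0.04 to 0.07. Tdg was at -0.06 without the deepest library of each group. Across the autosomes 0 genes passed an adjusted p of 0.05 in all alternatives except females alone, with 10, of which 5 were on the yolk sac list. Dividing by the longest transcript moved differences in level, in log2 RPKM, to 1.20 for Dnmt3b minus Dnmt3a, 0.34 for Dnmt3a minus Tdg, 1.01 for Tet3 minus Tet1 and 2.27 for Tet1 minus Tet2, with no change of order.

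Each replicate number holds 1 library per genotype, so a block on it cannot alter the fold changes (-0.20 for Tet1, 0.04 for Dnmt3b). With this block 0 genes passed and 307 reached an unadjusted p of 0.05 (limma), against 327 without it. No call changed. In deviations from the group means the numbers gave no sign of a pairing, and not every library correlated best with its own number. Such values cannot show that the embryos were unpaired.

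That there were 3 embryos per group limits what can be seen. The 95% intervals run from -0.15 to 0.07 on the log2 scale for Dnmt1 but from -0.75 to 0.56 for Tet2, which rests on 87 to 315 reads per library, and Dnmt3l could not be compared at these depths. The genotype effect reached an unadjusted p of 0.05 for Tet1 in females alone and without WT replicate 1, where 8.72% and 6.93% of all genes did, and for Dnmt3b without the deepest library of each group, where 10.1% did. RNA levels say nothing of protein, activity or methylation, which were not analysed here.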
